A study of Homo sapiens with 6 samples.

Results

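NRF2, the transcription factor encoded by NFE2L2, its inhibitor KEAP1 and 7 of its well-known target genes were followed in U251 cells exposed to the inhaled anesthetic sevoflurane (Sev). The 9 members were picked by gene symbol, were each matched to 1 Ensembl identifier, and stand among 61496 features in the deposited tables. U251 is an established human glioma cell line. One group held 3 libraries of untreated cells, here called control, and the other held 3 libraries of cells exposed to Sev for 2 h. Per the labels, Sev was used at 1.7%, at 3.4% or at 5.1%, with none tied to a library, and the study's legends name the highest for the sequenced cells. The study describes its quantitative data as coming from independent experiments, but neither the labels nor its account of the sequencing says that libraries of a group came from separate cultures, so p-values measure the spread between these libraries, which may be technical. All cells were of this single line, and no genotype or second agent set the groups apart.

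In resting cells, KEAP1 binds NRF2 and hands it to a ubiquitin ligase built on CUL3, so that NRF2 is degraded soon after it is made. Oxidants and electrophiles modify cysteines of KEAP1, NRF2 escapes, pairs with a small MAF protein in the nucleus and binds antioxidant response elements in its target genes. BACH1 pairs with the same small MAF proteins and represses part of these genes, HMOX1 above all. Much of this control acts on protein, which RNA sequencing does not measure. The targets cover heme breakdown (HMOX1), quinone reduction (NQO1), glutathione synthesis (GCLC and GCLM), the thioredoxin system (TXNRD1), the repair of oxidized peroxiredoxins (SRXN1) and a growth inhibitor induced by oxidative stress (OSGIN1).

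The core of an antioxidant response element reads TGACNNNGC. RefSeq promoter sequences on GRCh38.p14, 300 bases long with 250 before and 50 after a transcription start, were present for 8 of the 9 members in 11 windows, and HMOX1 had no entry. TGACNNNGC, searched on both strands, occurred in windows of 3 members, KEAP1, GCLM and TXNRD1. It occurred in 13.3% of all 35116 promoter windows, which is a share of windows and not of genes. The matches are shown because they sit both in members whose RNA was called changed and in members whose RNA was not. The sequences are written on the strand of the gene, the core is in capitals, and it reads in reverse in 3 of the 5 stretches.
KEAP1, chr19:10502784-10502812, minus strand: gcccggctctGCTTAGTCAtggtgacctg
KEAP1, chr19:10502807-10502835, minus strand: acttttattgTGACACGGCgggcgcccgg
GCLM, chr1:93909446-93909474, minus strand: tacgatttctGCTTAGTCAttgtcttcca
TXNRD1, chr12:104215670-104215698, plus strand: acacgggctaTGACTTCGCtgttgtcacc
TXNRD1 at another start, chr12:104286920-104286948, plus strand: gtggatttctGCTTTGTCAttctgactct

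The cores in KEAP1 begin 31 and 54 bases before its start, that in GCLM 34 bases before, and those printed for TXNRD1 99 and 102 bases before its separate starts. A further core in TXNRD1, 8 bases before its start, is not printed. GENCODE 29 places the stretch at the first TXNRD1 start outside any exon, 11 of the 29 bases of that in GCLM in an exon, and the others wholly within annotated exons. KEAP1 and GCLM thus hold the same 9 letters. The windows of NFE2L2, NQO1, GCLC, SRXN1 and OSGIN1 held no TGACNNNGC. The AP-1 site TGACTCA, which overlaps the antioxidant core where GC follows it, was found in OSGIN1 alone among the members with an entry and in 4.95% of all windows. The C/EBP-ATF letters TGATGNAA, which ATF4 can bind, were in none of the members' windows and in 3.62% of all windows. A match describes letters, and enhancers outside these windows were not searched.

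The 6 libraries held 38624292 to 46318311 counts, and 27514 features passed edgeR's expression filter and were tested with its quasi-likelihood test after TMM scaling. A call means a Benjamini-Hochberg adjusted p under 0.05 over all tested features. By this rule 22.1% of features were higher with Sev and 21.5% lower, and among 15189 tested protein-coding genes 25% were higher and 21% lower. Levels are given as CPM, counts scaled by TMM to a common library size, unless FPKM is named. The scaling bears on the background: of all calls 50.7% were higher with TMM, but 38.3% when libraries were scaled by their totals alone, which moved the median log2 fold change of all tested features from -0.0056 to -0.15. The 10 glial and glioma markers summed to between 8010 and 8950 CPM in control and 9029 to 9530 CPM with Sev, and VIM carried most of this sum (5485 and 6150 CPM on average, no call). NES, CD44 and GFAP were abundant too. Of the 10, CD44 (log2 fold change 0.97) and EGFR (0.27) were called higher and OLIG2 (-1.99), S100B (-1.10), SOX2 (-0.72) and PTPRZ1 (-0.63) lower. EGFR kept its call only without control replicate 2 or Sev replicate 2 when a library was left out (adjusted p up to 0.135 otherwise). With scaling by library totals EGFR had no call (0.13, adjusted p = 0.302). The sums of 5 genes each for neurons (17.3 to 19.3 against 24.3 to 26.1 CPM), leukocytes (6.11 to 8.42 against 10.0 to 13.3 CPM) and epithelial cells (20.7 to 22.2 against 27.0 to 31.0 CPM) were higher in every Sev library. KRT18 carried the epithelial sum (20.9 CPM on average in control and 29.4 with Sev). EPCAM, CDH1, KRT19 and ESRP1 had at most 14 counts in a library. SYT1 carried most of the neuron sum (13.5 and 19.7 CPM). CSF1R (3.84 and 6.30 CPM) and CD68 (3.015 and 4.80 CPM, no call) carried the leukocyte sum, since PTPRC had at most 12 counts in a library. KRT18 (log2 fold change 0.49, adjusted p = 0.00557), SYT1 (0.55, adjusted p = 0.0052) and CSF1R (0.72, adjusted p = 0.0201) were called higher. The sums for endothelial markers overlapped (8.33 to 10.4 against 9.53 to 12.9 CPM), with VWF and CDH5 without a call. The scarcer CLDN5 (1.19 CPM in control and 2.62 with Sev, log2 fold change 1.14, adjusted p = 0.0191) and PECAM1 (0.693 and 1.31 CPM, 0.92, adjusted p = 0.0409) were called higher. CLDN5 lost its call without control replicate 2 (adjusted p = 0.0635) or 3 (0.0663), and PECAM1 without any one library except control replicate 2 (adjusted p up to 0.128). PECAM1 also lost its call with scaling by library totals (0.78, adjusted p = 0.0629). STMN2, AIF1 and CD3E had 0 counts in every library, and the part of these markers in the results was not tested. In libraries of whole cultures, fewer cells expressing a gene and less RNA per cell cannot be told apart.

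Of the 9 members, 6 were higher in Sev-treated cells: HMOX1, TXNRD1, SRXN1, OSGIN1, GCLC and NQO1. None was called lower, and NFE2L2, KEAP1 and GCLM had no call. Of all tested features 22.1% were called higher and 21.5% lower, and of protein-coding genes 25% and 21%. The median log2 fold change of the members was 0.72, beside -0.0056 over all tested features and 0.038 over protein-coding genes. HMOX1 and TXNRD1 also passed the threshold of the study's methods, an absolute log2 fold change above 1 with an unadjusted p under 0.05, which 23.5% of all features and 16.7% of protein-coding genes passed. The 3 Sev libraries lay above all 3 control libraries for 6 members, an order seen in 28.3% of all features, and below them for NFE2L2, the order of 28.2% of features.

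**Figure D1:**
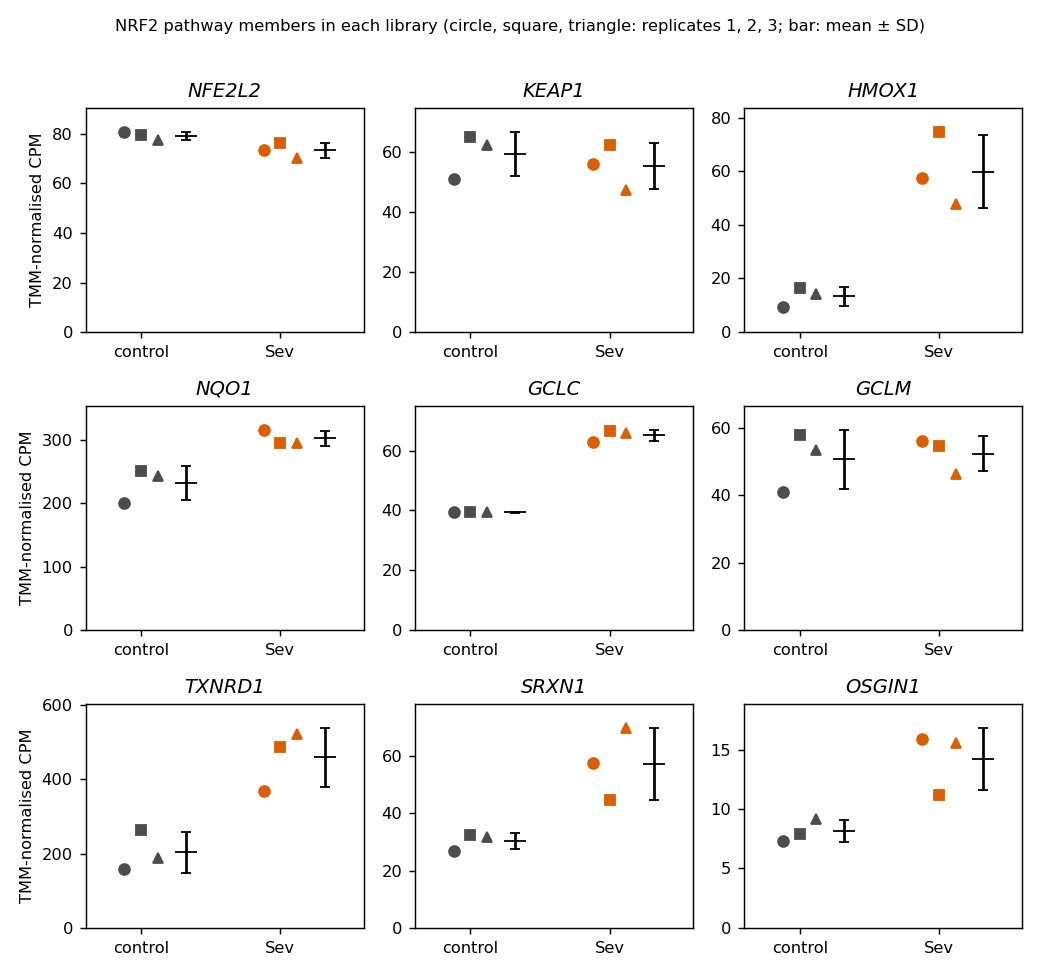
TMM-normalised CPM (vertical axis, from 0) of each member in the 3 control and 3 Sev libraries, with 1 marker per library and a bar for the mean ± SD. HMOX1 moved from 9.41 to 16.3 CPM in control to 47.6 to 74.7 CPM with Sev, whereas the groups overlapped for KEAP1 and GCLM.

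The factor and its inhibitor came first. NFE2L2 (ENSG00000116044) stood at 80.7, 79.4 and 77.4 CPM in the control libraries and at 73.3, 76.3 and 70.4 CPM in the Sev libraries. The Sev values were all a little lower, and the groups did not overlap. The log2 fold change was -0.11 ± 0.074 (SE, n = 3 per group), with a 95% interval from -0.28 to 0.062 and an edgeR adjusted p of 0.264. With libraries scaled by their totals alone the difference was -0.25 and was called (adjusted p = 0.0236), on a scale on which the median of all features was itself -0.15.

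The NFE2L2 locus shares exon sequence with annotated neighbours. AC019080.1, on the same strand, had 417, 239 and 507 counts in control and 192, 94 and 255 with Sev, and its counts came to 9.1% of those of NFE2L2. Its log2 fold change was -0.91, with an adjusted p of 0.0674. AC079305.1, on the opposite strand, had 9, 5 and 14 counts in control and 28, 16 and 24 with Sev and was called higher (log2 fold change 1.47, adjusted p = 0.0219), with counts at 0.513% of those of NFE2L2. AGPS on the opposite strand, with counts at 212.6% of those of NFE2L2, differed by -0.037 on the log2 scale (adjusted p = 0.779). Whether reads were counted by strand is not given, so those of these genes and of NFE2L2 may be split between them.

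KEAP1 (ENSG00000079999), the sensor that holds NRF2 in check, was at 51.1, 64.8 and 62.3 CPM in control and 55.9, 62.5 and 47.3 CPM with Sev. The values of the groups were interleaved. Its log2 fold change was -0.11 ± 0.13, with a 95% interval from -0.41 to 0.20 and an adjusted p of 0.55. That interval reaches further down than up, and changes within it cannot be told from none. The log2 fold change was -0.21 without control replicate 1 and -0.0037 without Sev replicate 3.

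The ratio of NFE2L2 to KEAP1, taken within a library from FPKM, was 0.996, 0.772 and 0.782 in control and 0.826, 0.769 and 0.939 with Sev. The log2 ratio changed by -0.0036 (exact two-sided permutation test, p = 0.9), and 3 libraries against 3 cannot reach a p below 0.1. Its sign turned without control replicate 1 (0.116), Sev replicate 1 (0.0103) or Sev replicate 2 (0.0612). No shift in the RNA of the factor relative to its inhibitor was detectable here.

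HMOX1 (ENSG00000100292), heme oxygenase-1, which splits heme into biliverdin, carbon monoxide and iron, rose most of the members. It was at 9.41, 16.3 and 14.3 CPM in control and at 57.3, 74.7 and 47.6 CPM with Sev, or 398 to 695 counts against 1886 to 2808. The lowest Sev library was above the highest control library by a wide margin. The mean went from 13.3 ± 3.54 to 59.9 ± 13.8 CPM (SD, n = 3), a log2 fold change of 2.17 ± 0.24, or 4.49-fold, with a 95% interval of 1.62 to 2.71 and an adjusted p of 0.000436. Among all tested features this was the 1224th highest log2 fold change. HMOX1 also varied between libraries of a group more than most members, with a coefficient of variation of 26.5% in control and 23% with Sev.

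TXNRD1 (ENSG00000198431), the cytosolic thioredoxin reductase, returns oxidized thioredoxin to its working form at the cost of NADPH. Its levels were 157, 264 and 187 CPM in control and 368, 487 and 521 CPM with Sev. All Sev libraries were clearly higher, although the control libraries themselves spread with a coefficient of variation of 27.2%. The log2 fold change was 1.18 ± 0.21, or 2.26-fold, with a 95% interval of 0.70 to 1.65 and an adjusted p of 0.00306. EID3, a gene within the TXNRD1 locus, with counts equal to 5.4% of those of TXNRD1, had no call (log2 fold change 0.23, adjusted p = 0.267).

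SRXN1 (ENSG00000271303), sulfiredoxin, restores peroxiredoxins whose active cysteine has been over-oxidized. It stood at 27.0, 32.4 and 31.6 CPM in control and 57.4, 44.6 and 69.8 CPM with Sev. The Sev libraries were again all higher, and they spread more (22%) than the control libraries (9.67%). The log2 fold change was 0.92 ± 0.16, or 1.89-fold (adjusted p = 0.00342), with a 95% interval from 0.54 to 1.30 that covers the study's limit of 1. Without Sev replicate 2, the lowest of its group, it was 1.07.

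GCLC and GCLM encode the catalytic and the modifier subunit of glutamate-cysteine ligase, the rate-limiting enzyme of glutathione synthesis. GCLC (ENSG00000001084) was at 39.6, 39.3 and 39.4 CPM in control and 62.9, 66.6 and 65.8 CPM with Sev. The control libraries were almost identical, with a coefficient of variation of 0.389%, below the 2.41% that counting error alone would give. The log2 fold change was 0.72 ± 0.075, or 1.65-fold, with a 95% interval of 0.55 to 0.90 and an adjusted p of 0.000367. GCLM (ENSG00000023909) was at 40.9, 57.9 and 53.4 CPM in control and 56.1, 54.6 and 46.4 CPM with Sev, and the groups overlapped. Its log2 fold change was 0.046 ± 0.14, with a 95% interval from -0.28 to 0.37 and an adjusted p of 0.819, and it turned negative without control replicate 1 (-0.097), without Sev replicate 1 (-0.0072) and with scaling by library totals (-0.095).

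The subunits were also compared within each library. The FPKM ratio of GCLC to GCLM was 0.609, 0.426 and 0.465 in control and 0.707, 0.768 and 0.895 with Sev. Every Sev library had more catalytic subunit RNA per modifier subunit RNA than every control library. The log2 ratio changed by 0.67, and the exact two-sided permutation p of 0.1 is the smallest that this design allows. Antisense transcript GCLC-AS1, with counts at 0.935% of those of GCLC, had no call (log2 fold change 0.18, adjusted p = 0.687).

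**Figure D2:**
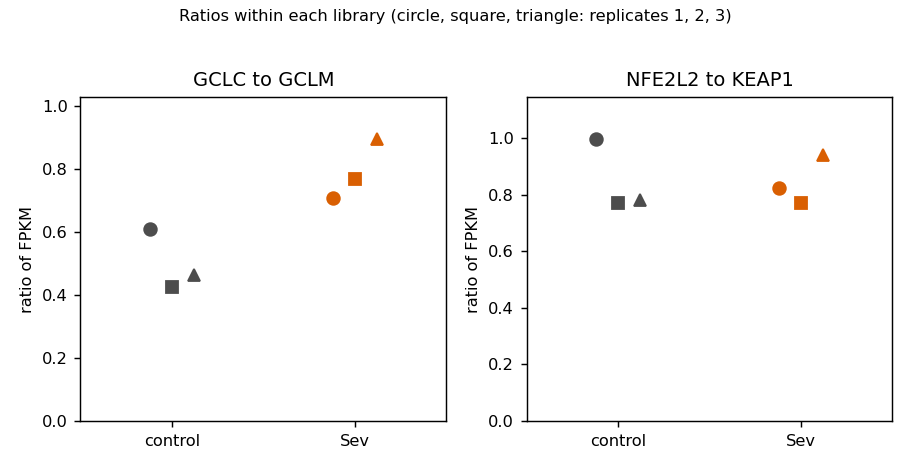
Ratio of FPKM (vertical axis, from 0) of GCLC to GCLM and of NFE2L2 to KEAP1 in each control and Sev library, 1 marker per library. The GCLC to GCLM ratio was at most 0.609 in control and at least 0.707 with Sev, whereas the NFE2L2 to KEAP1 ratios of the groups overlapped.

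NQO1 (ENSG00000181019), a quinone reductase that is a classic readout of NRF2, was at 201, 252 and 243 CPM in control and 317, 296 and 296 CPM with Sev. The groups did not overlap, but the difference was small: a log2 fold change of 0.38 ± 0.10, or 1.31-fold, with a 95% interval of 0.15 to 0.61 and an adjusted p of 0.0164. The call was lost without Sev replicate 1, its highest library (0.35, adjusted p = 0.0661), and with scaling by library totals alone (0.24, adjusted p = 0.0581). The divergent transcript NQO1-DT had no call (log2 fold change -0.57, adjusted p = 0.225).

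OSGIN1 (ENSG00000140961) was the least abundant member, at 7.33, 7.93 and 9.13 CPM in control and 15.9, 11.2 and 15.6 CPM with Sev. All Sev libraries were higher. Its log2 fold change was 0.80 ± 0.17, or 1.75-fold, with a 95% interval of 0.41 to 1.20 and an adjusted p of 0.00731.

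**Figure D3:**
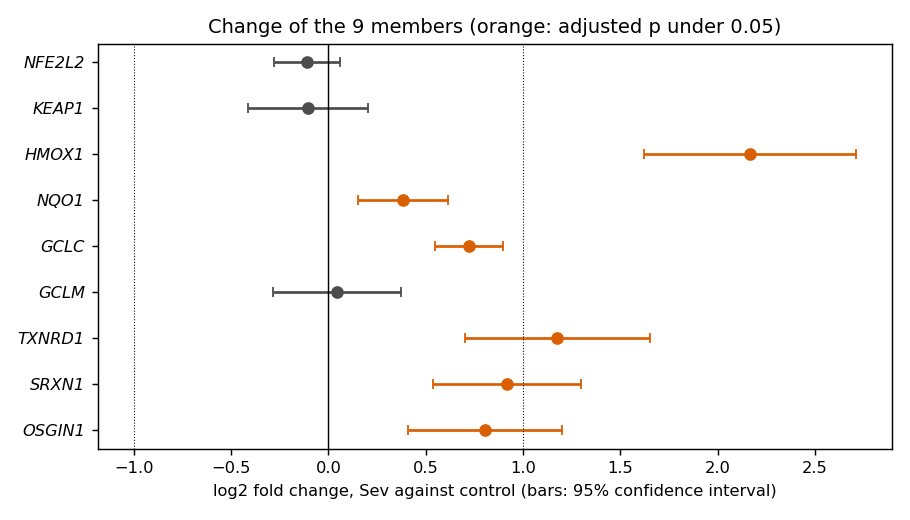
Log2 fold change of each member, Sev against control (horizontal axis), with its 95% confidence interval from edgeR; orange marks an adjusted p under 0.05 and dotted lines a log2 fold change of -1 and 1. The intervals of NFE2L2, KEAP1 and GCLM include 0, and that of HMOX1 lies wholly above 1.

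Control replicate 1 was the lowest control library for 7 of the 9 members, the exceptions being NFE2L2 and GCLC. Across 13145 features with a mean of at least 5 CPM, it was the lowest control library for 42.9%. Without it HMOX1 differed by 1.96, TXNRD1 by 1.01, SRXN1 by 0.83 and OSGIN1 by 0.73 on the log2 scale, and each was still called higher by edgeR (adjusted p of at most 0.0306). Across 15 other ways of fitting, including each library left out in turn, the calls of HMOX1, TXNRD1, SRXN1 and GCLC never changed. Their log2 fold changes ranged from 1.83 to 2.33, 1.01 to 1.41, 0.70 to 1.07 and 0.48 to 0.75, respectively. The low ends of HMOX1, SRXN1 and GCLC came from limma on log2(FPKM + 1), where the added 1 shrinks log2 differences. On counts their lowest values were 1.96, 0.75 and 0.58.

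**Figure D4:**
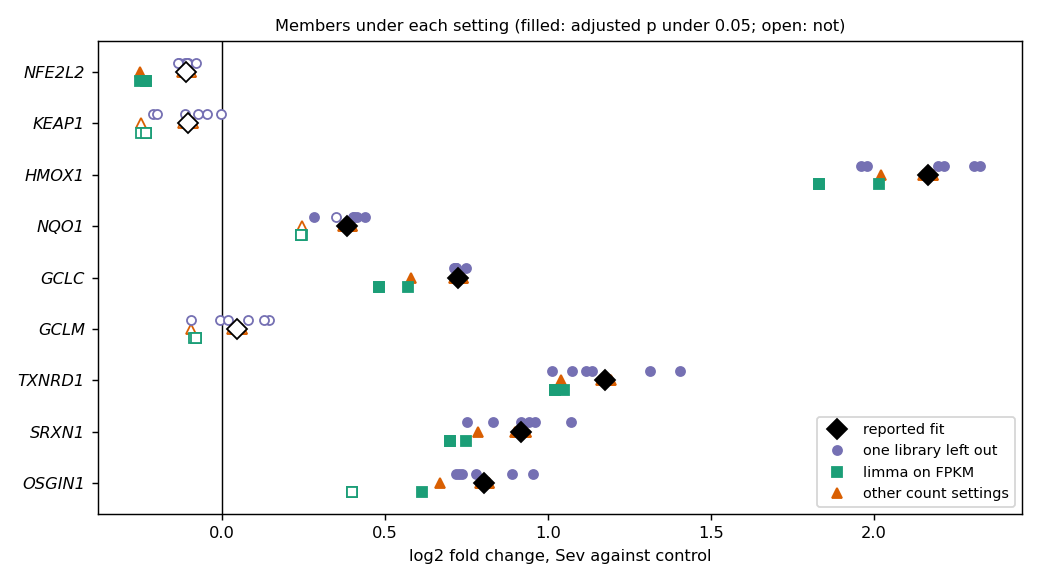
Log2 fold change, Sev against control (horizontal axis), of each member in the reported fit and in 15 alternatives, with filled markers where the adjusted p was under 0.05. HMOX1, TXNRD1, SRXN1 and GCLC are filled throughout, NQO1 is open in 5 alternatives, NFE2L2 is filled in 4 and GCLM lies on both sides of 0.

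Levels of different genes were compared by FPKM, which divides by gene length. In control cells NQO1 led with 66.4 ± 6.55 FPKM (SD, n = 3), followed by TXNRD1 (25.7 ± 6.49), KEAP1 (14.1 ± 1.47), NFE2L2 (11.9 ± 0.441), SRXN1 (9.53 ± 0.743), GCLM (7.93 ± 1.23), HMOX1 (4.91 ± 1.22), GCLC (3.89 ± 0.0962) and OSGIN1 (1.23 ± 0.131). The neighbours SRXN1 and GCLM overlapped in their libraries, as did HMOX1 and GCLC. With Sev, NQO1 (78.5 ± 4.11 FPKM) and TXNRD1 (52.9 ± 9.83 FPKM) still led, and HMOX1 came next at 20.0 ± 3.91 FPKM. SRXN1 (16.4 ± 4.14 FPKM) overlapped both HMOX1 and KEAP1 (11.9 ± 1.25 FPKM). NFE2L2 (9.94 ± 0.0600 FPKM), GCLM (7.41 ± 0.590 FPKM), GCLC (5.82 ± 0.231 FPKM) and OSGIN1 (1.96 ± 0.419 FPKM) followed without overlap. By FPKM, HMOX1 thus passed from below NFE2L2 and KEAP1 in every control library to above both in every Sev library. This order depends on gene length, which FPKM implied (control replicate 1) as 2.845 kb for HMOX1, 7.01 kb for NFE2L2 and 4.417 kb for KEAP1. In CPM, HMOX1 (57.3, 74.7 and 47.6) stayed below NFE2L2 (73.3, 76.3 and 70.4) in every Sev library. It lay a little above KEAP1 (55.9, 62.5 and 47.3) there.

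The proteins that act on NRF2 or share its binding sites were followed as a list of 22 genes, of which 10 were higher, 2 lower and 10 had no call (median log2 fold change 0.18), beside 22.1% of all tested features higher and 21.5% lower. BACH1 and BACH2, which compete with NRF2 for the small MAF proteins, rose: BACH1 went from 27.6 ± 0.835 to 59.0 ± 7.24 CPM (log2 fold change 1.10 ± 0.11, adjusted p = 0.000304) and BACH2 from 10.9 to 22.7 CPM (1.06 ± 0.11, adjusted p = 0.000345). Of the small MAF proteins themselves, MAFF rose from 18.9 to 77.9 CPM (2.05 ± 0.18, adjusted p = 0.00018). MAFK stood at 60.5, 58.7 and 52.5 CPM in control and at 143, 187 and 112 CPM with Sev, and also rose (1.37 ± 0.17, adjusted p = 0.000819). MAFG, at 26.7, 35.2 and 57.6 CPM in control and 46.9, 53.7 and 39.8 CPM with Sev, had no call (0.23 ± 0.26, adjusted p = 0.502), and without control replicate 3 it was called higher (0.59, adjusted p = 0.0425). MAFK, MAFG, SQSTM1 and CUL3 were chosen for mention after their values were seen.

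Among the proteins that hold or release NRF2, SQSTM1, the autophagy adaptor p62 that binds KEAP1, rose from 418 to 653 CPM (log2 fold change 0.65 ± 0.10, adjusted p = 0.00205). CUL3, the scaffold of the KEAP1 ligase, was called higher by 0.32 ± 0.073 (adjusted p = 0.00917), a call lost without control replicate 3 (0.30, adjusted p = 0.0511) and with scaling by library totals (0.18, adjusted p = 0.108). The acetyltransferase and coactivator EP300 rose by 0.61 ± 0.077 (adjusted p = 0.00077). BTRC, which serves a KEAP1-independent route of NRF2 degradation, fell by 0.43 on the log2 scale (adjusted p = 0.00371), and RXRA, a nuclear receptor that can repress NRF2, fell by 0.56 (adjusted p = 0.00681).

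Other known NRF2 targets were counted in 6 lists that leave the members out. Of their 50 genes 49 were tested, and 14 were higher, 5 lower and 30 without a call, with a median log2 fold change of 0.13. GGT1, AKR1B10 and ABCC2 passed the study's threshold upward and none passed it downward, whereas 23.5% of all tested features and 16.7% of protein-coding genes passed it in either direction. The Sev libraries lay above the control libraries for 20 of the 49 and below for 9. Over all tested features 22.1% were called higher and 21.5% lower, while 28.3% lay apart upward and 28.2% downward.

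**Figure D5:**
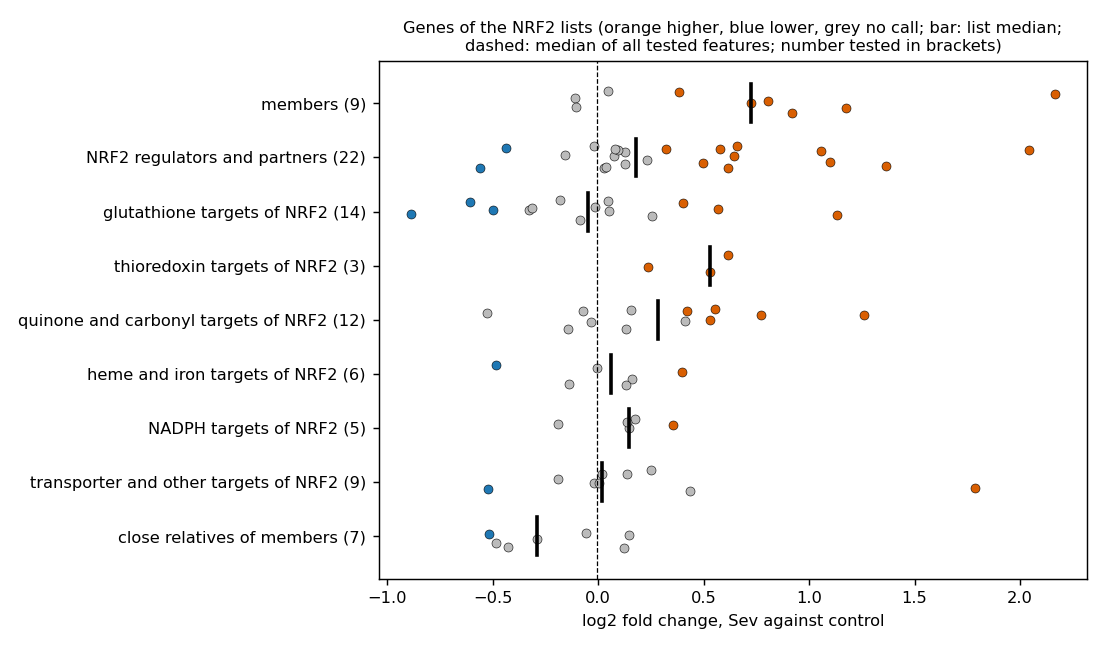
Log2 fold change, Sev against control (horizontal axis), of every tested gene in the members and in each list, coloured by call, with a bar at the list's median and a dashed line at the median of all tested features. The members' median is 0.72, that of the glutathione targets -0.048 and that of the 3 thioredoxin genes 0.53.

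Of the 14 glutathione genes 3 were higher, 3 lower and 8 without a call, near the 22.1% and 21.5% of all tested features. SLC7A11, the cystine importer that feeds glutathione synthesis, rose from 255 to 378 CPM (log2 fold change 0.57 ± 0.089, adjusted p = 0.00189). GGT1, which cleaves extracellular glutathione, rose from 2.84 to 6.20 CPM (1.13 ± 0.28, adjusted p = 0.0127). It was under 1 without control replicate 3 (0.97) or Sev replicate 3 (0.91), and had no call with limma on FPKM (0.42 to 0.85, adjusted p 0.0539 to 0.116). The glutathione transferase GSTP1 was higher by 0.40 ± 0.10 (adjusted p = 0.0146). The glutathione peroxidase GPX2, at 3.30 CPM in control and 1.78 with Sev, fell by 0.89 (adjusted p = 0.0148), and the transferases GSTM2 and GSTA4 fell by 0.61 (adjusted p = 0.0159) and 0.50 (adjusted p = 0.044). Without Sev replicate 1 the edgeR adjusted p was 0.0557 for GSTP1 (log2 fold change 0.38), 0.0574 for GPX2 (-0.79) and 0.0579 for GSTM2 (-0.54). The call of GSTA4 was lost in every fit that left out a library except that without control replicate 3, with an adjusted p of up to 0.106 and a log2 fold change of -0.31 without control replicate 1, and GSTP1 had no call with scaling by library totals (0.26, adjusted p = 0.0508).

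All 3 thioredoxin genes beyond the members were higher, beside 22.1% of all tested features. The peroxidase PRDX1 was at 614, 817 and 739 CPM in control and 1152, 1061 and 1113 CPM with Sev (log2 fold change 0.62 ± 0.11, adjusted p = 0.00401), with no overlap. Thioredoxin itself, TXN, rose by 0.53 ± 0.13 (adjusted p = 0.0133). PRDX6 differed by 0.24 ± 0.067 (adjusted p = 0.0237), but by 0.094 with scaling by library totals (adjusted p = 0.302). TXN lost its call without control replicate 3 (0.51, adjusted p = 0.0508) and without Sev replicate 1 (0.49, adjusted p = 0.0526), and PRDX6 in all fits that left out a library except that without Sev replicate 2, with an adjusted p of up to 0.0964.

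Of 12 quinone and carbonyl genes 5 were higher and none lower, beside 22.1% and 21.5% of all tested features. EPHX1, the microsomal epoxide hydrolase, rose from 97.7 to 144 CPM (log2 fold change 0.56 ± 0.091, adjusted p = 0.0023). The aldo-keto reductase AKR1B10 went from 1.01 to 2.40 CPM (1.26 ± 0.32, adjusted p = 0.0143) and was under 1 without control replicate 1 (0.98). AKR1B1 was higher by 0.53 (adjusted p = 0.0312) and AKR1C1 by 0.42 (adjusted p = 0.0339). AKR1B1 lost its call without any one of the control replicates (adjusted p 0.0735 to 0.102) and differed by 0.32 without Sev replicate 2, its highest library, and AKR1C1 lost it in every fit without a library except that without control replicate 2 (adjusted p up to 0.122). With scaling by library totals neither AKR1B1 (0.38, adjusted p = 0.0572) nor AKR1C1 (0.28, adjusted p = 0.131) was called. Genes of the AKR1, GSTM and peroxiredoxin families and FTL have close copies, and how reads shared between copies were counted is not stated.

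In the heme and iron list 1 of 6 genes was higher and 1 lower, near the 22.1% and 21.5% of all tested features. FTL, the ferritin light chain, was higher by 0.40 ± 0.12 (adjusted p = 0.0341), and the porphyrin transporter ABCB6 fell by 0.48 (adjusted p = 0.0301). FTL lost its call with scaling by library totals (0.26, adjusted p = 0.091) and in each fit without a library except that without control replicate 2 (adjusted p up to 0.109), and ABCB6 in each except that without Sev replicate 2 (adjusted p up to 0.0947). In the list of NADPH genes, ME1 had too few counts to be tested. Among 9 transporter and other genes, ABCC2, an efflux pump for glutathione conjugates, rose from 14.9 ± 0.0747 to 51.2 ± 3.39 CPM (1.79 ± 0.091, adjusted p = 3.9e-05), whereas its relative ABCC3 fell by 0.52 (adjusted p = 0.00479).

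Of 7 tested close relatives of the members, 1 was lower and 6 had no call, beside 21.5% of all tested features lower, with a median log2 fold change of -0.29. The Sev libraries lay below the control libraries for 4 of them, as for 28.2% of all features. With scaling by library totals, which moved the median of all features to -0.15, NFE2L1 (-0.64, adjusted p = 0.0409), HMOX2 (-0.43, adjusted p = 0.013) and TXNRD3 (-0.57, adjusted p = 0.0292) were called lower too. NQO2, a quinone reductase that uses other electron donors than NQO1, fell from 25.5 to 17.8 CPM (by 0.52 on the log2 scale, adjusted p = 0.004). The constitutive heme oxygenase HMOX2 had no call (-0.29 ± 0.11, adjusted p = 0.069), nor had TXNRD2 (-0.058, adjusted p = 0.746), the mitochondrial reductase, TXNRD3 (-0.43, adjusted p = 0.0841) or OSGIN2 (0.12, adjusted p = 0.427). The NRF2 relatives NFE2L1 (-0.48 ± 0.23, adjusted p = 0.129) and NFE2L3 (0.14, adjusted p = 0.236) had no call either. NFE2L1 stood at 300, 321 and 270 CPM in control and 240, 267 and 132 CPM with Sev, so that Sev replicate 3 was far below the rest, and without it the log2 fold change was -0.23. NFE2, the remaining relative, had 3 to 15 counts and was not tested. The sign of TXNRD2 turned without control replicate 3 (0.034) or Sev replicate 3 (0.00037), and that of OSGIN2 with scaling by library totals (-0.017).

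ATF4, the stress factor around which the study was built, and its target CHAC1, which degrades glutathione, were read in the same libraries. ATF4 rose from 179 to 377 CPM (log2 fold change 1.08 ± 0.086, adjusted p = 0.000147) and CHAC1 from 8.51 to 33.3 CPM (1.97 ± 0.15, adjusted p = 0.00013). HMOX1, SLC7A11 and SQSTM1 can be induced through ATF4 as well as through NRF2, and the routes cannot be told apart in these libraries.

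The profile of NFE2L2 over the 6 libraries, in log2 CPM centred on its own mean, was closest among 13144 features to those of MARCHF2, SMG9 and THOC2, with root mean square differences of 0.018, 0.018 and 0.022 on the log2 scale. The profile of HMOX1 was closest to those of AMIGO2 (0.0957), DOCK2 (0.150) and EDN1 (0.158). AMIGO2, a cell adhesion protein, was at 103, 155 and 128 CPM in control and 560, 678 and 451 CPM with Sev. In both AMIGO2 and HMOX1, replicate 2 was the highest library of each group, an order that the choice of the nearest profile itself favours. The likeness is a description over 6 libraries in 2 groups.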

How the data were processed

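Per the study's methods, total RNA of U251 cells was depleted of ribosomal RNA and made into strand-specific libraries, which were sequenced in pairs of 150 bases. The authors deposited raw counts per gene and, for the same genes, FPKM values. The submitters' processing notes name bcl2fastq 2.19, featureCounts and hg18 without a role. The aligner and the strand setting are not given in the sources used here. For each member the deposited FPKM equalled its count divided by library total and 1 fixed length, to within 0.939%, so FPKM carries scaling by library totals.

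Groups came from the sample titles. The test was edgeR 4.0.16 in R 4.3.3 on the counts (filterByExpr, TMM, glmQLFit and glmQLFTest, no covariate), with Benjamini-Hochberg adjustment over all 27514 tested features and a limit of 0.05. The SE of a log2 fold change was taken as its size over the root of the F statistic, and SDs are over 3 libraries. Within-library ratios were compared by exact two-sided permutation. Promoters and motifs were read in Python 3.11.15 from RefSeq sequences, and overlapping genes from GENCODE 29, on GRCh38; since hg18 is named for the files, no gene positions are given. Symbols were matched for 42005 of 60564 Ensembl identifiers. The depth of 38624292 to 46318311 counts per library limits genes with few counts, and 3 libraries per group limit the rest.

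Members and lists were chosen with earlier results of these data known, so no list was tested as a set. Named were all members, up to 4 genes per list and direction with the smallest p among called genes whose groups did not overlap, the members' antisense or divergent transcripts and EID3, the close relatives, ATF4 and CHAC1, and the 3 nearest profiles of NFE2L2 and HMOX1. The result for 1 gene that this rule names is not given. The alternatives were library totals alone, DESeq2 size factors, the Wald test of DESeq2 1.42.0, the replicate number as a blocking factor, a filter of at least 10 counts per library or none, omission of single libraries, and limma 3.58.1 on log2(FPKM + 1), with or without a minimum of 0.5 FPKM in 3 libraries, or with that minimum on log2(FPKM + 0.1).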

Additional observations from a re-analysis of the deposited data

How the results depend on the processing

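The count of 6 members higher was 5 without Sev replicate 1, with library totals alone and with limma on FPKM, where NQO1 lost its call; with limma on log2(FPKM + 1) without a filter OSGIN1 was lost too, leaving 4. The count of members lower went from 0 to 1 with library totals alone and with the 3 limma settings, each time NFE2L2; FPKM carries the same scaling by library totals. Of all features, 3676 were higher and 6709 lower with limma on log2(FPKM + 1), and 3623 and 6530 with log2(FPKM + 0.1). The reported fit had 6094 higher and 5920 lower. GCLM turned to -0.095 with library totals and to -0.079 and -0.087 with limma at a pseudocount of 1 (with or without the filter) and 0.1, and ranged from -0.097 to 0.144 when a library was left out. In the same limma settings NFE2L3 turned to -0.00050 and -0.00071 and OSGIN2 to -0.020 and -0.026, with OSGIN2 at -0.017 with library totals. Where a library was left out, the cause was not tested.

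Without single libraries, TXNRD2 ranged from -0.165 to 0.034, and the change of the NFE2L2 to KEAP1 log2 ratio from -0.082 to 0.116. Same-numbered libraries deviated together with correlations of -0.077, 0.029 and 0.079, so the numbers were not taken to pair them; with the replicate number as a block 5228 features were higher and 5021 lower, 6 members were higher and 0 lower, and no member's call changed, while GSTA4, PRDX6 and AKR1C1 lost theirs and NFE2L1 gained one (-0.54, adjusted p = 0.0473), among 55 named genes. Depth limits ME1, NFE2 and the genes near 1 CPM.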

Other observations

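CDKN1A, which encodes p21, a cell cycle inhibitor that can also bind NRF2, was singled out after its values were seen. It stood at 79.9, 76.6 and 29.5 CPM in control replicates 1, 2 and 3 and at 72.8, 93.3 and 24.8 CPM in the same-numbered Sev libraries, so replicate 3 was by far the lowest in both groups. Its edgeR adjusted p was 0.959.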
